A study of Homo sapiens with 8 samples.

Results

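The genes described here encode the linker histones (H1) and the core histones H2A, H2B, H3 and H4 that package DNA into nucleosomes. They were chosen by name: a current symbol beginning H1-, H2AC, H2BC, H3C or H4C followed by a number, or an older name of the HIST1H to HIST4H series. A reference table of human genes held 99 such genes, 74 of which had a probe on the array, and 67 of the 15552 genes tested were among them: 8 H1, 16 H2A, 17 H2B, 13 H3 and 13 H4 genes. Of these 67 genes, 64 carried an older HIST name, and the others, such as H1-7 and H1-10, which lie outside the clusters, were matched by symbol alone. The 7 genes with a probe that were not tested were H1-6, H1-8, H1-9P, H2AC2P, H2BC1, H2BP1 and H4C7, whose probes were not well above background on both arrays of any group. All 67 genes tested are protein coding, and 61 were well above background on all 8 arrays.

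Replication-dependent histone genes lie in clusters, are short, and mostly lack introns. They are transcribed as cells copy their DNA, and most of their mRNAs end in a stem-loop in place of a poly(A) tail, which is bound by the stem-loop binding protein SLBP and cut by a complex that includes the U7 snRNP. A few members and the replacement histones, such as H3-3A, are expressed outside S phase from ordinary polyadenylated mRNAs. The labelling kit primes cDNA from poly(A) tails, and how that primer captured transcripts without a tail was not tested. Genes of a subfamily are near copies of each other, the probes' sequences were not given in the files, and a probe may therefore report on more than its named gene.

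The RNA came from MDAH (MDAH-2774) and SKOV3 cells, epithelial ovarian cancer lines, in which SFPQ, a splicing and transcription factor of the paraspeckle, had been silenced with the lentiviral shRNAs sh-SFPQ#2 or sh-SFPQ#3. There were 4 groups of 2 arrays: for each line, 2 controls not silenced for SFPQ and 2 silenced samples, 1 for each shRNA. By the labels both controls of a line carried a control shRNA, while the methods name the parental cells and sh-ctrl cells of each line. The silenced samples of a line, with their different shRNAs, were separately transduced cells, and each shRNA had 1 sample in a line. If both controls carried the control shRNA, nothing says that they were separate cultures. The p-values measure the spread between these samples, which within the silenced groups includes the difference between the shRNAs. KRT7, KRT8, KRT18, KRT19, EPCAM, PAX8 and VIM were well above background on all 8 arrays, CDH1 on 6, WT1 on 4, MUC16 on 2 and MSLN on 0. Among markers of blood, vessel and fibroblast cells, PTPRC, CD14, CDH5 and COL1A1 were well above background on all 8 arrays, with log2 levels between -3.64 and 0.61, DCN was well above background on 4 arrays, PECAM1 on 1 and COL3A1 on 0. COL1A1 lay at -0.89 and -0.58 in the MDAH controls against 0.20 and 0.61 in silenced cells, and at -2.16 and -2.76 against -1.5 and -0.96 in SKOV3 cells. DCN lay at -3.90 and -3.85 in the SKOV3 controls against -1.82 and -2.18, and the part of these markers in the histone results was not tested. Levels are log2 signals relative to the 75th percentile of their array throughout, and a change is the difference of such levels. The 75th percentile itself ranged from 244 to 496 intensity units, and it was lowest on the MDAH sh-SFPQ#3 array.

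The promoters of the members, which the choice by name did not use, shared some motifs across the subfamilies and differed in others. RefSeq windows from 250 bases before to 50 bases after the start (GRCh38.p14) matched 61 of the 67 genes by symbol, and were searched on both strands. The letters TATAAA were in 65.6% of the members' windows and in 12% of all 27305 windows of the table, with 54.5% of the H4 windows the lowest share of a subfamily, and CCAAT in 85.2% and 35.7%. CCAAT was in all 15 H2A, all 17 H2B and all 11 H3 windows, but in 3 of 11 H4 windows (27.3%). The octamer ATTTGCAT, known from H2B promoters, was in 13 of 17 H2B, 11 of 15 H2A, 1 of 11 H3, 0 of 7 H1 and 0 of 11 H4 windows and in 1.8% of all windows. The H1 box AAACACA was in 6 of 7 H1, 1 of 15 H2A, 1 of 11 H3, 0 of 17 H2B and 0 of 11 H4 windows and in 5.76% of all windows. The H2A and H2B counts are not independent, since neighbouring H2A and H2B genes that start back to back share much of their windows: those of H2AC14 and H2BC14 share 256 bases. The 150 bases before the start are shown for this pair, whose changes differed most among such pairs on the MDAH sh-SFPQ#3 array apart from that of H2AC25, for H3C10, which was below its controls on all silenced arrays, for H4C9, which was far below them with sh-SFPQ#3, and for H2AC25, which had the highest change in MDAH cells. Capitals mark matches to TATAAA, to CCAAT and to the octamer, on either strand, and matches on the opposite strand appear as the reverse complement. A match is of letters alone and not a known site.
H2AC14 (chr6:27814778-27814927, minus strand): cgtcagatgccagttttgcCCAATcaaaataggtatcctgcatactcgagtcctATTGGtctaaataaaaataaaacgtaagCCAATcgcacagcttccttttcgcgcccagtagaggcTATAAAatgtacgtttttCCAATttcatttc
H2BC14 (chr6:27814872-27815021, plus strand): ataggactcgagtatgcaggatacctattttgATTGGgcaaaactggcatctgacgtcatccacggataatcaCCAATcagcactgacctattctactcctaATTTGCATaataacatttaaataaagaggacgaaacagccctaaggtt
H3C10 (chr6:27809901-27810050, plus strand): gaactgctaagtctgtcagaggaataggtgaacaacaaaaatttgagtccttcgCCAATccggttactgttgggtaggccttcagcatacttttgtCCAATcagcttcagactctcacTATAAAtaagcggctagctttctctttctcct
H4C9 (chr6:27139132-27139281, plus strand): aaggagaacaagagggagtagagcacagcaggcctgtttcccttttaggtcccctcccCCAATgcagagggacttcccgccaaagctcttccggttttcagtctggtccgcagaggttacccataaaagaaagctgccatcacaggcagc
H2AC25 (chr1:228457874-228458023, minus strand): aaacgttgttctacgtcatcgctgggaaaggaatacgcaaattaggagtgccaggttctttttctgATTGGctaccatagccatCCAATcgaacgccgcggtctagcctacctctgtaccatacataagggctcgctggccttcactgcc

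The silenced gene was examined in every sample. The level of SFPQ was 2.45 with sh-SFPQ#2 and 2.10 with sh-SFPQ#3 in MDAH cells, whose controls had levels of 3.64 and 3.91. In SKOV3 cells it was 3.01 and 2.48, against control levels of 4.84 and 4.66. All silenced arrays were below both controls of their line, and SFPQ fell by 1.5 ± 0.23 (SE) in MDAH cells (adjusted p = 0.0328) and by 2.01 ± 0.23 in SKOV3 cells (adjusted p = 0.0299). Under 23 other settings this call was lost in 10 in MDAH and in 9 in SKOV3 cells. The change then stayed between -1.68 and -1.31 in MDAH and between -2.27 and -1.74 in SKOV3 cells. SFPQ was lower with sh-SFPQ#3 than with sh-SFPQ#2 in each line, by 0.44 ± 0.16 on average, which did not pass the test (adjusted p = 0.212).

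Most histone genes had a lower level in silenced than in control MDAH cells, but few of them passed the test. Of the 67 genes, 55 were below 0 (40.2% of all genes tested were), with a median change of -0.54 against 0.10 for all genes. H3C10 and H4C1 passed the test, both lower, beside 2.03% of all genes called (1.61% lower), and 21 members had an unadjusted p under 0.05, where 23.1% of all genes did. The silenced arrays lay below both controls for 46 of the 67 genes, or 68.7%, against 21.4% of all genes, and above both controls for 4 genes, or 6.0%, against 35.6%. H4C1, an H4 gene, lay at 3.08 and 3.01 in the controls and at 1.75 with sh-SFPQ#2 and 2.07 with sh-SFPQ#3, a fall of 1.13 ± 0.17 (adjusted p = 0.0299). H3C10, an H3 gene, lay at 3.12 and 3.11 against 1.57 and 2.17, a fall of 1.25 ± 0.22 (adjusted p = 0.0468). For both genes the groups did not overlap, and the lower silenced array was that of sh-SFPQ#2. The H3 gene H3C11 had the lowest fitted value of the members, -1.41 ± 0.28, from levels of 1.52 and 1.71 in the controls and 0.62 and -0.21 in the silenced samples (adjusted p = 0.0628). No member passed when MDAH control 1, MDAH control 2, SKOV3 control 1 or SKOV3 control 2 was left out, when 9, 14, 198 and 198 of all genes passed, against 316 with all arrays. The median of the members then stayed between -0.55 and -0.48.

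The subfamilies were not alike in MDAH cells. The median change was -0.71 over the 16 H2A genes, -0.66 over the 13 H3 genes and -0.59 over the 13 H4 genes, with 14, 12 and 13 genes below 0, and it was -0.06 over the 8 H1 and -0.08 over the 17 H2B genes, with 5 and 11 below 0. Of the 3 H1 genes above 0, H1-1 and H1-5 were not well above background on any MDAH array. Centring each array on its median instead moved the median of all genes in this comparison from 0.10 to 0.21 and those of H1 and H2B to 0.05 and 0.03, above 0. Silenced arrays lay below both controls for 14 of 16 H2A, 11 of 13 H3 and 12 of 13 H4 genes, but for 6 of 17 H2B and 3 of 8 H1 genes. The H2A count includes H2AC1 and the H2B count H2BC6, both tested only because of their signal in control groups. On the MDAH sh-SFPQ#3 array 9 of 17 H2B genes (52.9%) were above both controls and 7 (41.2%) below them, near the shares of all genes, 52.1% and 34.5%. The H2B genes with the highest changes on that array, named after their values were seen, were H2BC14, at 3.64 against 2.68 and 2.81 in the controls, and H2BC10, at 3.40 against 2.52 and 2.64. With sh-SFPQ#2 they stood at 2.75 and 2.64, level with their controls. On the MDAH sh-SFPQ#2 array 13 of 17 H2B genes (76.5%), H2BC6 among them, were below both controls and 0 above them. Of all genes 32.3% were below and 47.6% above on that array. The H2B median was -0.18 with sh-SFPQ#2 and 0.02 with sh-SFPQ#3, so that only the former array had most H2B genes lower.

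**Figure D1:**
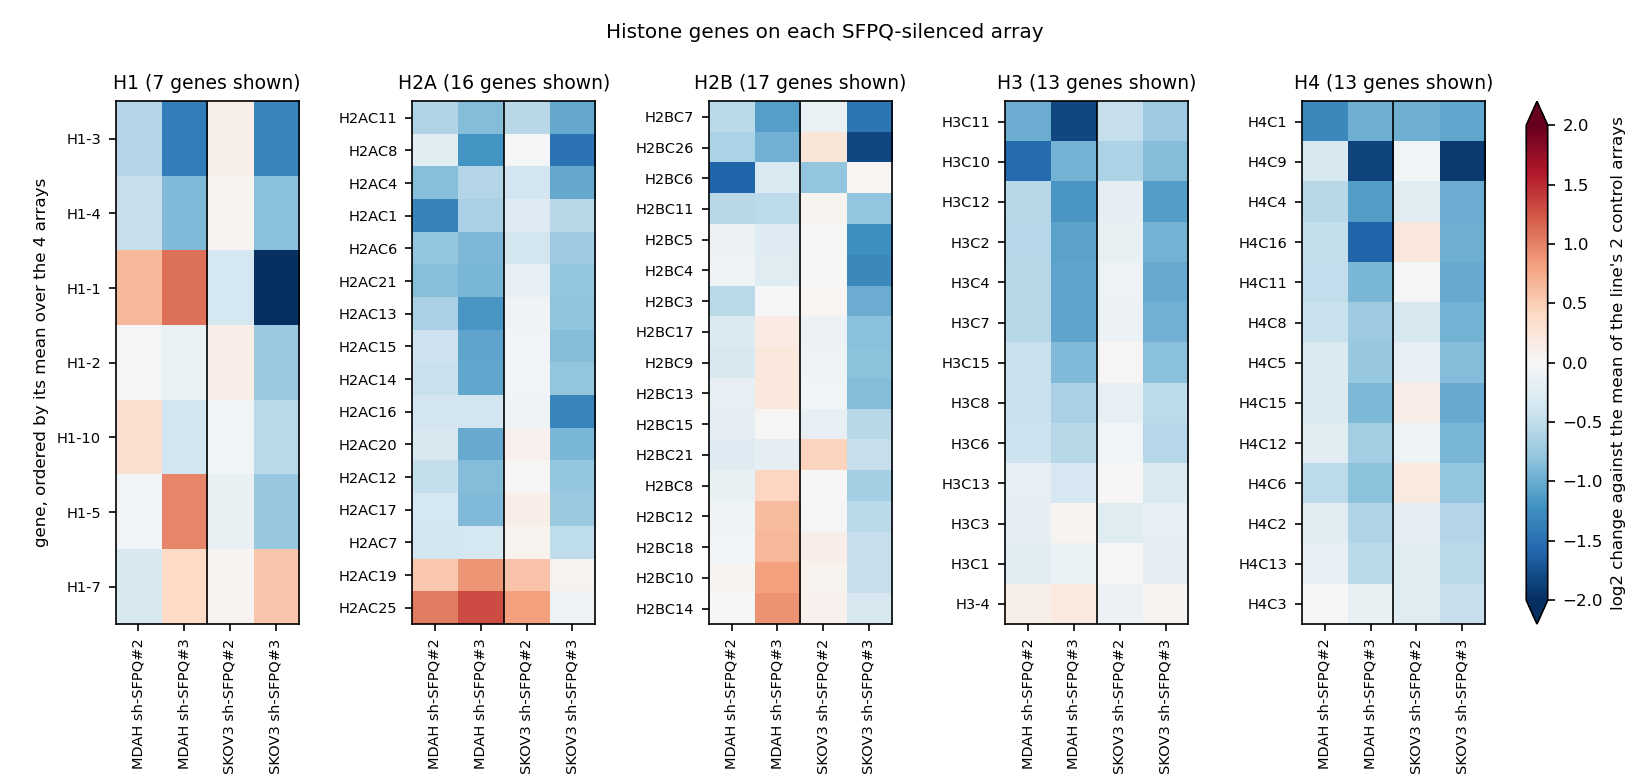
Change of the histone genes tested on the 4 silenced arrays (1 H1 gene is not shown), as the log2 level minus the mean of the 2 controls of the line (blue lower, red higher, colours saturating at 2 in either direction), with genes ordered within each subfamily by their mean over the 4 arrays. The H2A, H3 and H4 panels are mostly blue in MDAH cells and with sh-SFPQ#3 in SKOV3 cells, H2AC19, H2AC25 and H3-4 being the main exceptions, while several H2B genes are red with sh-SFPQ#3 in MDAH cells.

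In SKOV3 cells 63 of the 67 genes were below 0 (54.0% of all genes), with a median of -0.43 against -0.04 for all genes. No member passed the test in limma, beside 0.997% of all genes, and 7 members had an unadjusted p under 0.05, where 19.5% of all genes did. The silenced arrays lay below both controls for 35 of 67 genes, or 52.2%, against 32.1% of all genes, and above both for 0 genes, against 25.9%. H4C1 lay at 3.13 and 2.90 in the controls and at 2.05 and 1.98 in the silenced samples, -1.01 ± 0.17 (adjusted p = 0.0594). The H2A gene H2AC11 lay at 2.96 and 3.13 against 2.49 and 2.02, -0.79 ± 0.20 (adjusted p = 0.12). All 17 H2B genes were below 0 in this line, with a median of -0.37, beside -0.43 for H2A, -0.40 for H3, -0.50 for H4 and -0.34 for H1. The arrays of this line differed: the median member change was -0.79 with sh-SFPQ#3 and -0.05 with sh-SFPQ#2. With sh-SFPQ#3 60 members lay below both controls (46.6% of all genes did) and with sh-SFPQ#2 37 did (41.7%), whereas in MDAH cells 50 did with sh-SFPQ#3 (34.5%) and 55 with sh-SFPQ#2 (32.3%). Without the sh-SFPQ#2 array 5 members and 595 of all genes passed in SKOV3 cells, and without the sh-SFPQ#3 array 0 members and 79 of all genes did, against 155 of all genes with both.

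Over both lines 5 members fell, H4C1, H3C11, H3C10, H2AC11 and H2AC6, and 0 rose, beside 5.66% of all genes called (3.64% lower), and 29 members had an unadjusted p under 0.05 (26.4% of all genes did). The average over lines was below 0 for 58 of 67 genes (44.9% of all genes), with a median of -0.48 against 0.04. H4C1 fell by 1.07 ± 0.12 (adjusted p = 0.0107), H3C10 by 1.0 ± 0.15 (adjusted p = 0.0234) and H3C11 by 1.0 ± 0.20 (adjusted p = 0.0388). H2AC11 fell by 0.76 ± 0.14 (adjusted p = 0.0354). H2AC6 lay at 2.54 and 2.47 in the MDAH controls against 1.71 and 1.61, and at 2.51 and 2.47 in the SKOV3 controls against 2.12 and 1.77, a fall of 0.69 ± 0.12 (adjusted p = 0.0281). All 5 were below their controls on all 4 silenced arrays, as were 27 of the 67 genes, or 40.3%, against 10.3% of all genes. These 27 held 10 H2A, 1 H2B, 7 H3, 9 H4 and 0 H1 genes. H4C9 had a lower average than H3C10, -1.03 ± 0.47, and did not pass (adjusted p = 0.22), since its levels differed between the shRNAs. Over all genes 880 passed, and this number moved with the array left out: it was 32 without MDAH control 1 and 60 without MDAH control 2 (0 members in each), 192 without SKOV3 control 1 and 231 without SKOV3 control 2 (1 member in each). It was 1397 without the SKOV3 sh-SFPQ#2 array (27 members) and 356 without the SKOV3 sh-SFPQ#3 array (2 members).

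**Figure D2:**
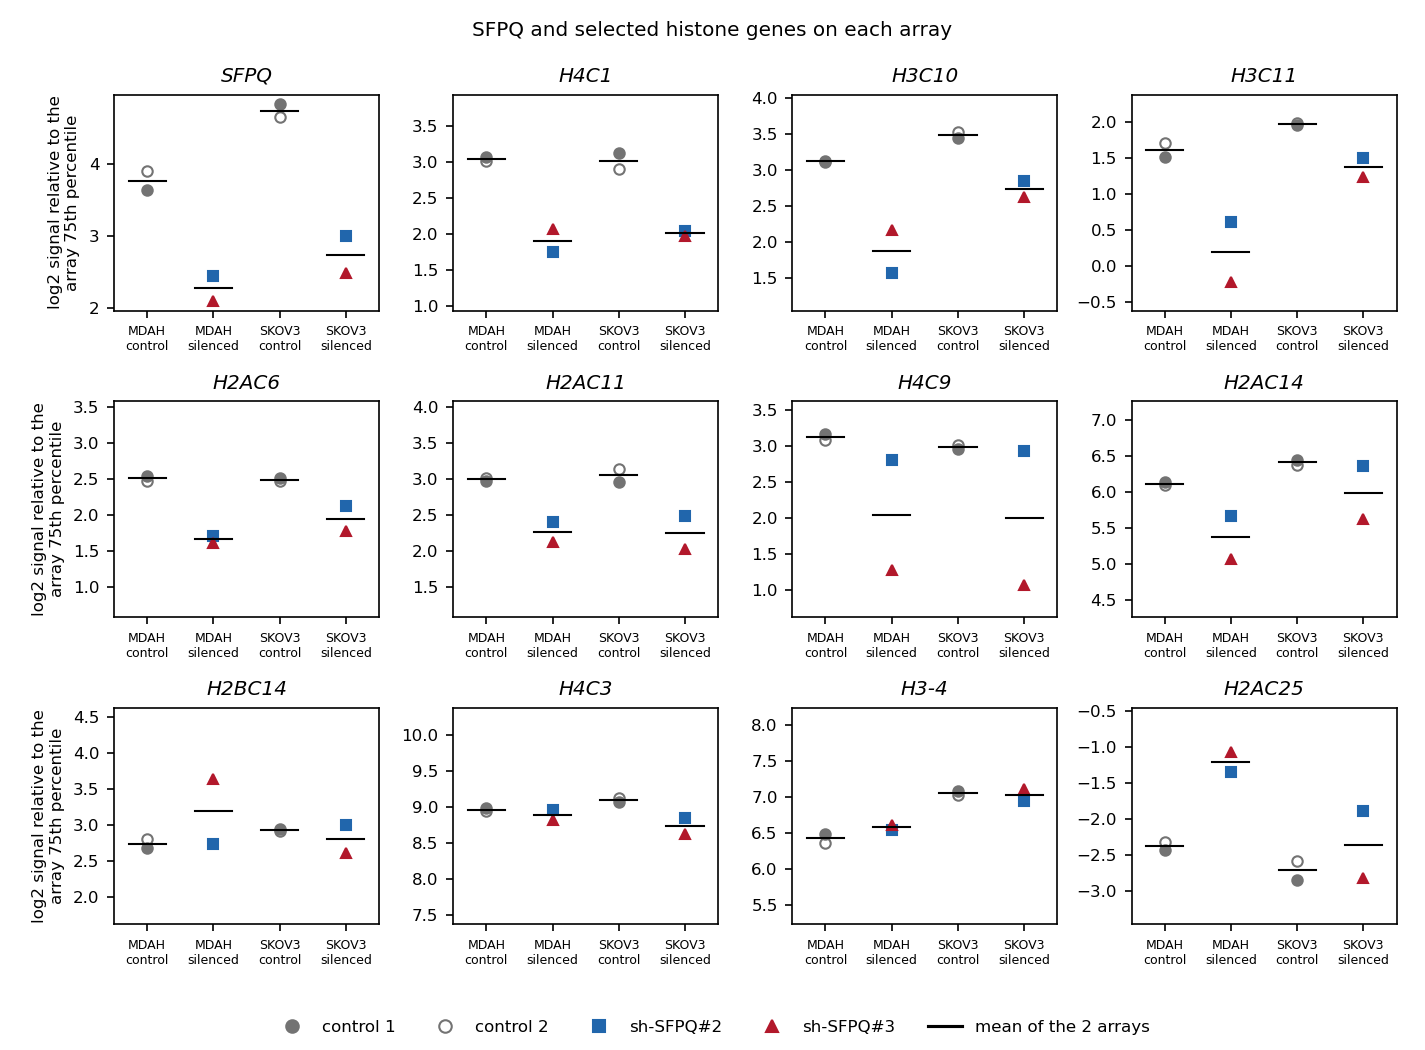
Log2 level of SFPQ and 11 histone genes on each array (relative to the 75th percentile of the array), with controls in grey, sh-SFPQ#2 as blue squares, sh-SFPQ#3 as red triangles and the mean of the 2 arrays of a group as a bar. H4C1, H3C10, H3C11, H2AC6 and H2AC11 are below their controls on every silenced array, H4C9 is far below only with sh-SFPQ#3 (1.28 in MDAH and 1.07 in SKOV3 cells), and H3-4 stays near its controls, as does H4C3 in MDAH cells.

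The members named for the brightest probe of their subfamily and for the highest changes are given next. H3-4, whose probe was the brightest of the H3 genes (probes' signals do not rank genes by transcript number), lay between 6.36 and 6.61 on all MDAH arrays and between 6.94 and 7.10 on all SKOV3 arrays, with an average change of 0.06 ± 0.10. H4C3, the brightest H4 probe, had an average of -0.21 ± 0.11 (adjusted p = 0.249), with both silenced arrays (8.84 and 8.63) below both controls (9.06 and 9.12) in SKOV3 cells. H1-2, the brightest H1 probe, had an average of -0.19 ± 0.20 (adjusted p = 0.567). H2BC13, the brightest H2B probe, gave 0.02 ± 0.28 in MDAH and -0.46 ± 0.28 in SKOV3 cells, and H2AC14, the brightest H2A probe, -0.74 ± 0.29 and -0.43 ± 0.29. The highest values in MDAH cells were those of H2AC25 (1.16 ± 0.30), H1-1 (0.87 ± 0.56), H2AC19 (0.71 ± 0.23) and H1-5 (0.46 ± 0.47), none of which passed, and neither MDAH group was well above background for H1-1 or H1-5. H2AC25 lay at -2.43 and -2.32 in the MDAH controls against -1.35 and -1.07, and at -2.83 and -2.58 in the SKOV3 controls against -1.88 with sh-SFPQ#2 and -2.81 with sh-SFPQ#3. Its groups were separate in MDAH cells and overlapped in SKOV3 cells, and its average was 0.76 ± 0.22 (adjusted p = 0.0855). High values in SKOV3 cells were 0.36 ± 0.30 for H2AC25, 0.32 ± 0.23 for H2AC19 and 0.30 ± 0.28 for H1-7, none of which passed.

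No member passed the test of the difference between the lines, beside 0.0965% of all genes called, and 1 had an unadjusted p under 0.05, where 14.9% of all genes did. The median difference, MDAH minus SKOV3, was -0.10 for the members and 0.12 for all genes, which became 0.04 and 0.26 when the arrays' medians were set equal, -0.285 and 0.023 with quantile normalization, and -0.287 and 0.021 with the deposited log2 values. Single arrays decided its sign: the members' median was 0.25 without the SKOV3 sh-SFPQ#2 array and 0.06 without the MDAH sh-SFPQ#3 array. By subfamily it was 0.42 for H2B, with 12 of 17 genes above 0, and -0.26 for H2A, -0.21 for H3, -0.10 for H4 and -0.02 for H1. H3C11 (-0.82 ± 0.39) and H4C16 (-0.66 ± 0.67) had negative differences. The probe of H4C16 was well above background on 1 of the 2 silenced MDAH arrays, and its difference was smaller than its SE. The most positive was that of H1-1, 2.17 ± 0.79 (adjusted p = 0.302), followed by H1-5 (0.91 ± 0.66) and H2AC25 (0.81 ± 0.43), but H1-1 and H1-5 were not well above background on any MDAH array, so that their fitted differences and order are not measured differences between the lines.

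The 2 shRNAs were compared in a fit with a term for the shRNA. The median difference, sh-SFPQ#3 minus sh-SFPQ#2, was -0.42 over the members and 0.003 over all genes, with 55 of 67 genes below 0 against 49.7% of all genes. The median of the members was -0.17 without either silenced SKOV3 array, which leaves MDAH cells alone, and -0.73 without either silenced MDAH array, and this difference between the lines was not tested. H4C9, H2AC8, H4C16 and H1-3 were lower with sh-SFPQ#3 and H2BC6 higher, beside 3.02% of all genes called (2.19% lower and 0.836% higher), and 33 members had an unadjusted p under 0.05, where 19.8% of all genes did. H4C9 lay at 2.80 with sh-SFPQ#2 and 1.28 with sh-SFPQ#3 in MDAH cells, with controls at 3.16 and 3.08. In SKOV3 cells it lay at 2.93 and 1.07, with controls at 2.95 and 3.01. Against the mean of the controls its change with sh-SFPQ#2 was -0.32 in MDAH and -0.05 in SKOV3 cells, and with sh-SFPQ#3 -1.84 and -1.91. The difference between the shRNAs was -1.69 ± 0.14 (adjusted p = 0.01). H2AC8 differed by -1.22 ± 0.15 (adjusted p = 0.0227), H4C16 by -1.16 ± 0.16 (adjusted p = 0.026) and the linker histone gene H1-3 by -1.11 ± 0.18 (adjusted p = 0.0411). H2BC6 differed by 1.06 ± 0.16 (adjusted p = 0.0326), but its probe was well above background only on the MDAH controls, and that of H4C16 was so on 1 of the 2 silenced MDAH arrays. Of all genes 470 passed, against 41 without either MDAH control (0 members), 135 without either silenced MDAH array (2 members), 276 without either SKOV3 control (3 members) and 269 without either silenced SKOV3 array (1 member).

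**Figure D3:**
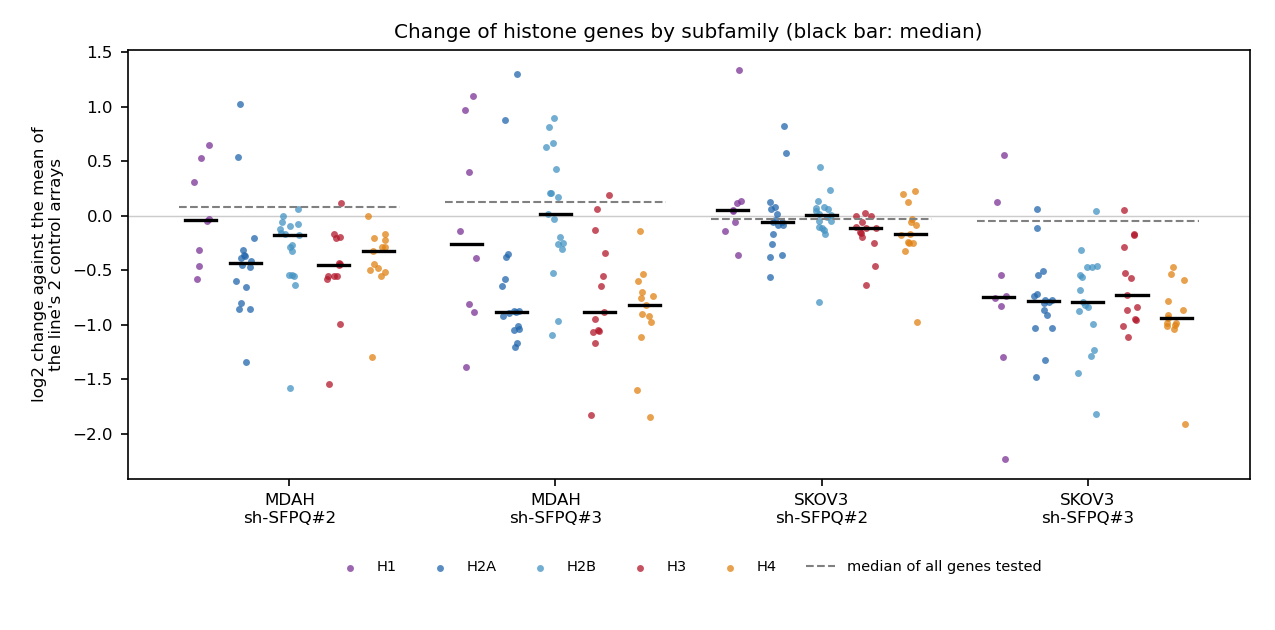
Change of each histone gene on each silenced array (log2, against the mean of the 2 controls of the line), by subfamily, with the subfamily's median as a black bar and the median of all genes tested as a dashed line. With sh-SFPQ#3 the H2A, H3 and H4 medians lie between -0.94 and -0.73 in both lines, the H2B median is 0.02 in MDAH and -0.79 in SKOV3 cells, and with sh-SFPQ#2 in SKOV3 cells all 5 medians lie between -0.17 and 0.05.

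With 1 shRNA term for both lines, the spread between the silenced arrays no longer held the difference between the constructs that the lines share. A difference particular to 1 line stayed in it. More members passed: 20 in MDAH cells, 4 in SKOV3 cells and 34 over both lines, all lower, beside 6.32%, 4.61% and 9.28% of all genes called lower. These calls hold for the mean of the 2 shRNAs and do not cover the variation between constructs. The 34 were 12 H2A, 10 H4, 8 H3, 2 H2B and 2 H1 genes. The 4 in SKOV3 cells were H4C1, H4C9, H2AC11 and H2AC8. Against the mean of the SKOV3 controls, H4C1 changed by -0.97 with sh-SFPQ#2 and -1.04 with sh-SFPQ#3, and H2AC11 by -0.56 and -1.03. H4C9 changed by -0.05 and -1.91, and H2AC8 by -0.04 and -1.48. The SKOV3 falls of H4C9 and H2AC8 thus came almost wholly from the sh-SFPQ#3 array. Fits with 1 shRNA at a time were added after the data were seen, and assume that a lone silenced array varies like the other groups. With sh-SFPQ#3 alone 29 members fell and 4 rose in MDAH cells (H2AC25, H1-1, H2BC14 and H2BC10), 38 fell in SKOV3 cells, and 41 fell and 1 rose (H2AC25) over both lines, beside 8.89%, 7.42% and 12.7% of all genes called lower, and 4.88% called higher in MDAH cells and 9.56% over both lines. With sh-SFPQ#2 alone 4 fell in MDAH cells (H2BC6, H3C10, H2AC1 and H4C1), 0 passed in SKOV3 cells, and over both lines H2BC6, H4C1, H3C10, H2AC1 and H3C11 fell while H2AC25 rose, beside 2.75%, 1.15% and 4.09% called lower and 1.37% called higher over both lines. Among these, H1-1 was not well above background on any MDAH array, H2AC1 on no silenced MDAH array, and H2BC6 on the MDAH controls only, so that the MDAH levels of H2AC1 and H2BC6 were at least 1.46-fold and at least 1.61-fold higher in controls than in silenced cells over all arrays. Both H2AC1 and H2BC6, which are also among the 34, passed the filter only through control groups. The filter therefore fixed the direction of their falls and of these bounds. The members' share of the summed signal of all genes tested was 1.1% and 1.01% in the MDAH controls, 0.848% and 0.648% in the silenced MDAH cells, in the order of the shRNA numbers. The share was 1.05% and 0.992% in the SKOV3 controls and 1.02% and 0.777% in the silenced SKOV3 cells. In bulk RNA of this kind, fewer cells in S phase and less histone RNA per cell cannot be told apart.

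Neighbouring histone genes that start back to back did not always move alike. The reference held 12 pairs of adjacent members on opposite strands whose starts face away from each other within 1000 bases, and both genes were tested in 11. Of these, 9 joined an H2A to an H2B gene. On the MDAH sh-SFPQ#3 array the H2A gene had the lower change of the pair in 8 of 9 pairs, with medians of -1.01 for the H2A and 0.02 for the H2B genes. On the MDAH sh-SFPQ#2 array this was so in 8 of 9 pairs too, with medians of -0.42 and -0.18. In SKOV3 cells the H2A gene was the lower in 6 of 9 pairs with sh-SFPQ#2 (medians -0.06 and 0.02) and in 5 of 9 with sh-SFPQ#3 (medians -0.80 and -0.79). H2AC14, for example, lay at 6.14 and 6.10 in the MDAH controls against 5.67 and 5.08, while H2BC14, whose upstream bases are shown above beside those of H2AC14, lay at 2.68 and 2.81 against 2.75 and 3.64. In MDAH cells the exception was H2AC25 and H2BC26: the H2A gene was at 1.16 and the H2B gene at -0.80 ± 0.59 in MDAH cells, and on each silenced array the H2A gene was the higher. The neighbours H2BC7 and H3C4 gave -0.82 and -0.80 in MDAH and -0.79 and -0.56 in SKOV3 cells, whereas H2BC9 and H3C7 gave -0.06 and -0.80 in MDAH and -0.46 and -0.54 in SKOV3 cells. The pairs share their arrays and probes of near copies, so that these counts are a description.

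**Figure D4:**
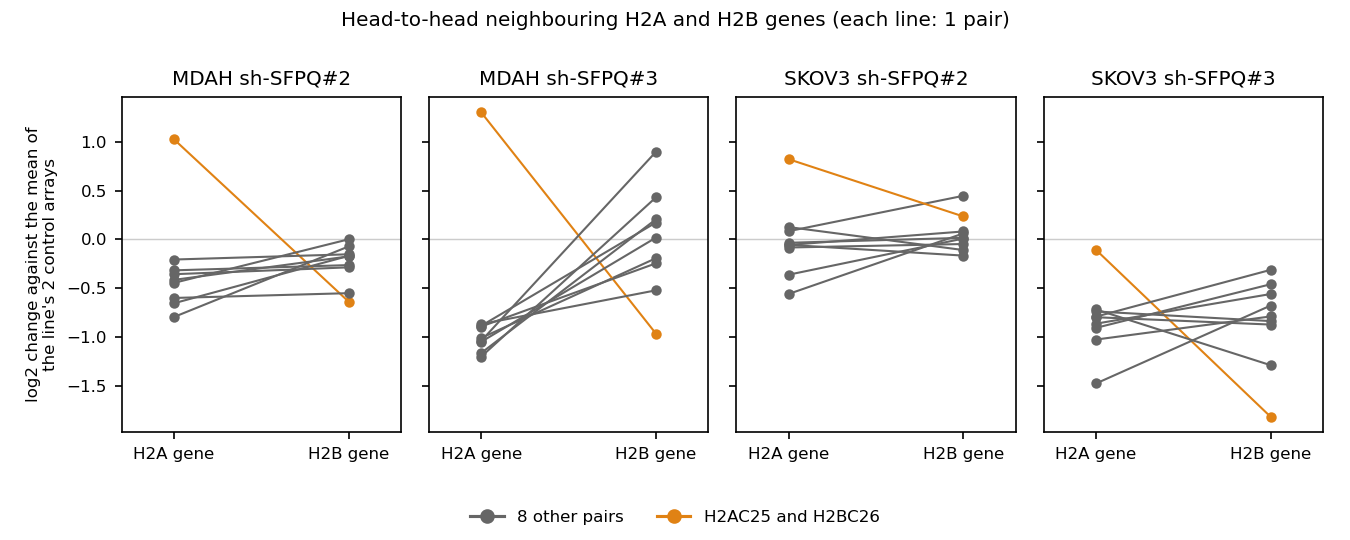
Log2 change, against the mean of the 2 controls of the line, of 9 pairs of neighbouring H2A and H2B genes that start back to back, with a panel for each silenced array and a line for each pair. With sh-SFPQ#3 in MDAH cells 8 lines climb from the H2A to the H2B gene, from a median of -1.01 to 0.02 over the 9 pairs, and the pair H2AC25 and H2BC26 (orange) runs the other way on every array.

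Probes of the same H2B gene disagreed. The probe used for H2BC12 (A_33_P3229083) lay at 2.46 and 2.62 in the MDAH controls against 2.44 and 3.17, whereas another probe of this gene (A_23_P145238), which the files name by the same RefSeq accession, lay at 1.57 and 1.93 against 3.04 and 4.70. In SKOV3 cells that probe lay at 1.75 and 1.79 against 1.96 and 2.54, so that it was above both controls on all 4 silenced arrays. Fitted as features of their own, the probes gave 0.27 and 2.12 ± 0.51 in MDAH cells, and the latter did not pass (adjusted p = 0.0863). For H2BC18, the probe used (A_21_P0010654) and a second one of the same accession gave 0.31 and 0.24 in MDAH cells. Another probe of H2BC18 (A_33_P3229241), named by another transcript, lay at -5.26 and -5.65 in the MDAH controls, which were not well above background, and at -3.78 and -3.79 in the silenced cells, at least 2.13-fold higher. It passed the filter only through those silenced arrays, which fixed this direction. These probes were singled out after their values were seen. In the other 7 of the 9 genes with several probes past the filter, the probes of a gene had changes of the same sign in each line. The second probe of H4C1 gave -0.66 in each line, and that of H3C10 -0.56 in MDAH and -0.46 in SKOV3 cells, so that only the brighter probe of each passed.

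Between the controls of the lines 9 members differed, beside 57.5% of all genes called, and 8 of them were lower in MDAH cells, beside 30.7% of all genes. An unadjusted p under 0.05 was found for 11 members, where 62.3% of all genes had one. H1-5 and H1-1 were well above background in SKOV3 controls and on no MDAH array, and were at least 143-fold and at least 93.2-fold higher in SKOV3 cells. Both were tested only because of their SKOV3 signal, so that the filter fixed the direction of these differences. H1-5 lay at 2.36 and 2.21 in the SKOV3 controls, and H1-1 at 1.81 and 1.52. H2AC16 (-1.87), H3C3 (-1.24), H2AC4 (-1.08), H2AC19 (-0.92), H3C8 (-0.71) and H3-4 (-0.63) were lower in MDAH controls. No H2B or H4 gene passed, and the H2B genes H2BC7 (1.13 ± 0.42, adjusted p = 0.053) and H2BC6 (0.77 ± 0.44) had high values, H2BC6 being at least 1.66-fold higher in MDAH controls since no SKOV3 array was well above background. H2BC6 was tested only because of its signal in the MDAH controls, so that the filter fixed this direction too. Over the members the median difference was -0.04 and over all genes -0.05, and after quantile normalization the former was 0.10. H1-1 lay at 1.31 with sh-SFPQ#2 and at -0.57 with sh-SFPQ#3 in SKOV3 cells, the lowest value of any member in that line, -1.30 ± 0.56 (adjusted p = 0.267).

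Other genes of the histone pathway were taken from 4 lists, chosen like the histone genes with earlier results of these data known. Among 24 genes tested for histone mRNA transcription and 3′ end processing, 4 (16.7%) were below 0 in MDAH cells, with a median of 0.31. In SKOV3 cells 11 (45.8%) were below 0, with a median of 0.02. Of all genes, 40.2% in MDAH and 54.0% in SKOV3 cells were below 0. Of the 24, 0 passed in either line or in the average, where 2.03% (MDAH), 0.997% (SKOV3) and 5.66% (average) of all genes did. SLBP lay at 3.70 and 3.96 in the MDAH controls against 4.22 and 4.57, 0.56 ± 0.18 (adjusted p = 0.147), and at 5.29 and 5.17 in the SKOV3 controls against 5.29 and 5.13, -0.02 ± 0.18 (adjusted p = 0.967). Its silenced arrays were above both controls in MDAH cells and near them in SKOV3 cells. ZNF473, a zinc finger protein of the U7 snRNP complex (0.49 ± 0.11, adjusted p = 0.0521), and HINFP, the activator of H4 genes (0.50 ± 0.13, adjusted p = 0.0676), had the highest averages of this list. WDR33 (-0.61 ± 0.22, adjusted p = 0.148), a polyadenylation factor, and NCBP2 (-0.37 ± 0.21, adjusted p = 0.306), of the cap-binding complex, had the lowest.

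Of 29 S phase genes, 2 (6.9%) were below 0 in MDAH cells, with a median of 0.43, and 20 (69.0%) in SKOV3 cells, with a median of -0.12. Of all genes 40.2% and 54.0% were below 0, with medians of 0.10 and -0.04. CCNE1, the cyclin of S phase entry, rose by 0.58 ± 0.11 over both lines (adjusted p = 0.0342), and POLA1, the catalytic subunit of DNA polymerase alpha, fell by 1.12 ± 0.23 (adjusted p = 0.0422), 2 of 29 genes where 5.66% of all genes passed. Under 20 other settings the call of CCNE1 was lost in 9 and that of POLA1 in 10. POLA1 lay at 2.39 and 2.89 in the MDAH controls against 1.5 and 0.83, and at 2.75 and 2.55 in the SKOV3 controls against 2.20 and 1.56. CDC6, which loads the replicative helicase, had an average of 0.70 ± 0.22 (adjusted p = 0.105) and GINS1, a subunit of that helicase, one of -0.62 ± 0.18 (adjusted p = 0.0916). By array the median of the list was 0.32 and 0.55 with sh-SFPQ#2 and sh-SFPQ#3 in MDAH cells and 0.04 and -0.27 in SKOV3 cells, beside -0.36, -0.64, -0.05 and -0.79 for the histone genes.

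Of the 11 replacement histones tested, 9 were not members by name, and they had medians of -0.01 in MDAH and -0.13 in SKOV3 cells, with 5 and 8 below 0 (40.2% and 54.0% of all genes were) and 0 called, beside 2.03% and 0.997% of all genes. H3-3A, a replacement H3 gene with a polyadenylated mRNA, gave -0.01 ± 0.15 and -0.13 ± 0.15, and H2AX, the variant of the DNA damage response, 0.09 ± 0.18 and -0.41 ± 0.18. H2AZ2 (-0.37 ± 0.11, adjusted p = 0.0872) and H2AZ1 (-0.29 ± 0.11, adjusted p = 0.164) had the lowest averages, and MACROH2A1 an average of 0.21 ± 0.11 (adjusted p = 0.265). Of 20 histone chaperones tested, 1 (5%) was below 0 in MDAH and 16 (80%) in SKOV3 cells, with medians of 0.31 and -0.12. Of all genes 40.2% and 54.0% were below 0, with medians of 0.10 and -0.04. ATRX, which deposits H3.3 with DAXX, fell by 0.57 ± 0.10 over both lines (adjusted p = 0.0337), and was the single gene of the list to pass in the average, where 5.66% of all genes did. The call of ATRX was lost in 10 of 20 other settings. ANP32E, which removes H2A.Z, had an average of -0.20 ± 0.11, and the nucleosome assembly genes NAP1L1 and NAP1L4 averages of 0.44 ± 0.15 and 0.35 ± 0.11, none of which passed.

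**Figure D5:**
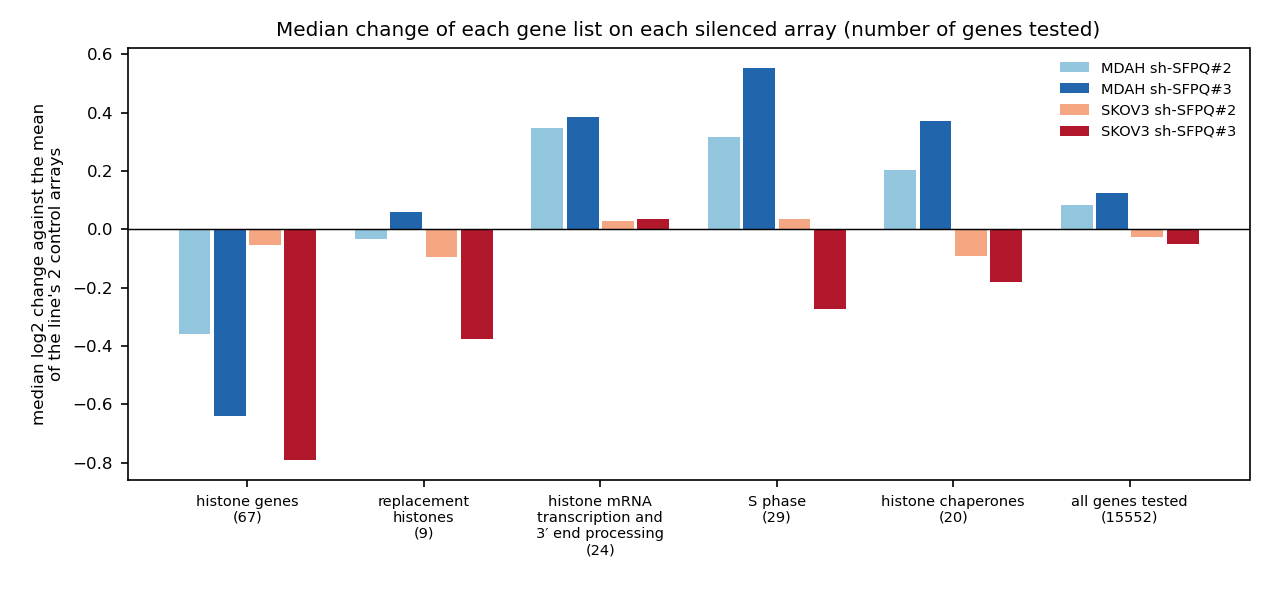
Median log2 change of the histone genes, 4 other lists and all genes tested on each silenced array, against the mean of the 2 controls of the line, with the number of genes tested under each name. The histone genes have the lowest median on 3 of the 4 arrays, and the S phase, processing and chaperone lists lie above 0 on both MDAH arrays.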

How the data were processed

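RNA of 8 samples was labelled with the Agilent Low Input Quick Amp kit and hybridised to 1-colour Agilent 8x60k arrays. Per the file headers, the deposited intensity values were background-subtracted and detrended by Feature Extraction 11.5.1.1, whereas the submitters' processing notes name 10.7.3.1. A log2 table that the authors deposited held quantile-normalized, per-probe centred values, as a comparison with the scanner files showed, and served as an alternative. Control and outlier spots (209 to 310 per array) were left out, and log2 intensity minus the 75th percentile of the array was used. Probes were named through the RefSeq accessions of a GRCh38.p14 gene table (28174 of 30878 probes matched), and a gene was represented by its brightest probe and tested where that probe was well above background on both arrays of a group. The 4 groups were fitted together in limma 3.58.1 (R 4.3.3), with Benjamini-Hochberg adjustment over 15552 genes at a threshold of 0.05, and the code of this fit was tested on simulated data. The number of arrays limits the precision. All arrays lay on 1 slide with the lines in separate rows, so that position and line cannot be told apart. Columns of samples outside the series numbered 0. Named were SFPQ, the brightest member of each subfamily, the 4 top and 4 bottom changes per line, the 3 top and 3 bottom values of the average, of the difference and of the controls' comparison, members that passed, and in each other list the 2 highest and lowest averages and genes that passed. The members, lists and tests were chosen with earlier results of these data known. The values of 1 tested H1 gene are not reported here on their own, though it counts among the members.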

Additional observations from a re-analysis of the deposited data

How the results depend on the processing

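In MDAH cells 2 members passed the test, and 6 did with normexp background correction and quantile normalization, 4 with trend and robust options in eBayes, 20 with the shRNA number as a covariate, 12 by the methods' t-test unadjusted, 4 without the arrays of sh-SFPQ#3 and 33 without those of sh-SFPQ#2, but 0 with no filter on dim probes, with the mean of all probes, with the 2 groups alone or by the methods' t-test after Benjamini-Hochberg. In SKOV3 cells, where 0 passed, 1 did with normexp, with probes well above background on all arrays or with trend and robust, 4 with the shRNA covariate, 4 by the unadjusted t-test and 38 without sh-SFPQ#2, the median being -0.054 without sh-SFPQ#3 and -0.793 without sh-SFPQ#2. Of the average, 5 passed, against 2 with arrays centred on the median or with no filter, 13 with normexp, 9 with trend and robust, 34 with the shRNA covariate and 42 without sh-SFPQ#2, with medians of -0.202 without sh-SFPQ#3 and -0.768 without sh-SFPQ#2. By the unadjusted t-test 1961 of all genes passed in MDAH cells and 1758 in SKOV3 cells, beside the 12 and 4 members. For the difference between lines the members' median was 0.1 without sh-SFPQ#2 and -0.324 without sh-SFPQ#3, against -0.103. Between control lines 9 members passed, beside 57.5% of all genes, and 18 with the covariate, beside 63.6%. With the 2 groups alone 22 members passed, and 22 and 15 by the t-test before and after adjustment. Between shRNAs 5 members and 470 of all genes passed, against 23 and 698 with median centring, 17 and 720 with normexp, 1 and 128 with no filter and 19 and 791 with probes well above background on all arrays, and 3 among members above background on all arrays. The calls over all genes moved too: in MDAH cells, from 316 to 622 with normexp, 1441 with the covariate, 2141 without sh-SFPQ#2 and 143 with the 2 groups alone; in SKOV3 cells, from 155 to 322, 1243 and 2018 under the first 3 of these; in the average, from 880 to 1435, 2526 and 3455, and to 370 with no filter.

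Leaving out 1 array gave 0 to 3 members in MDAH cells (9 to 1091 of all genes), 0 to 5 in SKOV3 cells (13 to 595 of all genes, median -0.793 to -0.054), 0 to 27 in the average (32 to 1686 of all genes, median -0.691 to -0.273), 5 to 13 between control lines (5 without SKOV3 control 1), 0 to 3 between shRNAs (median -0.728 to -0.173), and a median difference between lines of -0.376 to 0.253, which changed sign to 0.253 without the SKOV3 sh-SFPQ#2 array and to 0.062 without the MDAH sh-SFPQ#3 array. The cause was not tested. The replicate number did not pair controls with silenced samples, whose correlations across genes were -0.10 and 0.04, nor the control 2 samples of the lines (0.08), while the sh-SFPQ#3 arrays of the lines, which share their shRNA, correlated at 0.36. The replicate block gave 0 calls and medians of -0.205 in MDAH cells and -0.171 in the average, 0 calls and a median of -0.198 in SKOV3 cells, and 16 calls between control lines. Slide could not be tested as a batch, since there was 1 slide. Of 1437 values of single named genes under other settings, 1185 kept direction and side of the threshold, 155 lost a call, 81 gained one, and 16, none of them called, turned sign. These include H1-5 in MDAH cells (to -0.104 without MDAH control 1), H2AC25 in SKOV3 cells (to -0.107 without sh-SFPQ#2) and the average of NCBP2 (to 0.03 with the replicate block).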
